A study of Homo sapiens with 6 samples.

Results

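GDF15, the activins, the transforming growth factor betas (TGF-betas), BMP4 and the follistatins were examined in lung cancer cells depleted of PPM1G. They were the ligand genes GDF15, INHBA, INHBB, INHBE, TGFB1, TGFB2, TGFB3 and BMP4 and the antagonist genes FST and FSTL3, 10 of the 17534 genes measured. The genes were chosen by name with their levels in both groups already known, so their own differences are given as a description, with fold changes and errors but no p-values. RNA sequencing compared 3 libraries of cells with a short hairpin RNA (shRNA) against PPM1G, a protein phosphatase of the PP2C family found mainly in the nucleus, with 3 control libraries. All cells were of the NCI-H1703 line, an established human line that the labels call lung squamous cell carcinoma. The control libraries carry the genotype Sh-NC in the labels, while the series text speaks of wild-type cells. The sources used here do not give the number or sequence of the hairpins, or whether each library came from its own culture or clone. The p-values below therefore measure the spread between these libraries, which may be technical.

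Ligands of this family are made as precursors, cleaved by furin-like proteases and secreted as dimers that bring together type I and type II receptor kinases, which then phosphorylate SMAD transcription factors. Activins are dimers of inhibin beta chains and, with the TGF-betas, signal mainly through SMAD2 and SMAD3, whereas bone morphogenetic proteins such as BMP4 signal through SMAD1, SMAD5 and SMAD9. Follistatin and follistatin-like 3 bind activins outside the cell and keep them from their receptors. GDF15 is a distant member whose receptor is GFRAL with RET, and it is known as a hormone of cell stress that reduces appetite.

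The libraries held 31337553 to 35838246 counts. PPM1G itself stood at 182, 194 and 188 CPM (counts scaled by library total and TMM factor) in PPM1G shRNA libraries 1 to 3, against 333, 308 and 324 CPM in control libraries 1 to 3, and fell to 0.585 of its control level (edgeR quasi-likelihood test, adjusted p = 3.3e-20). Markers of squamous lung carcinoma were low in both groups: KRT6A, KRT14, DSG3 and PKP1 had at most 0.188 CPM in any library, TP63 had 0.567 to 1.05 CPM in PPM1G shRNA and 1.14 to 1.75 CPM in control libraries, and SOX2 had 9.99 to 11.2 CPM in PPM1G shRNA and 21.8 to 24.5 CPM in control libraries. Of 4 lung adenocarcinoma markers, the lineage factor gene NKX2-1 had 115 to 128 CPM in PPM1G shRNA and 106 to 121 CPM in control libraries, and the surfactant genes SFTPB and SFTPC had at most 0.081 CPM in any library. NAPSA, which encodes the protease napsin A, was higher, with 21.6 to 22.3 CPM in PPM1G shRNA and 1.97 to 2.42 CPM in control libraries. The 5 epithelial markers summed to 299 to 319 CPM in PPM1G shRNA and 316 to 338 CPM in control libraries. Among them, KRT8 had 182 to 194 CPM in PPM1G shRNA and 210 to 222 CPM in control libraries. KRT18 had 106 to 117 CPM in PPM1G shRNA and 96.1 to 103 CPM in control libraries. EPCAM had 10.3 to 12.7 CPM over all libraries, while CDH1 had at most 0.431 CPM and KRT19 at most 0.247 CPM in any library. Of 7 fibroblast and mesenchymal markers, 4 averaged at least 1 CPM, and the 7 summed to 510 to 518 CPM in PPM1G shRNA and 315 to 337 CPM in control libraries. COL1A1 accounted for most of that gap (341 to 350 CPM in PPM1G shRNA, 148 to 165 CPM in control libraries), while COL1A2 was lower (3.43 to 4.33 CPM in PPM1G shRNA, 5.48 to 7.43 CPM in control libraries), THY1 had 155 to 156 CPM in PPM1G shRNA and 156 to 165 CPM in control libraries, and LUM and COL3A1 had at most 0.243 CPM in any library. Of 6 leukocyte markers only CD68 was above 1 CPM (551 to 583 CPM in PPM1G shRNA, 1240 to 1300 CPM in control libraries), and 4 endothelial markers summed to 3.61 to 4.70 CPM in PPM1G shRNA and 5.08 to 7.23 CPM in control libraries. Among these, PECAM1 was lower (0.942 to 1.32 CPM in PPM1G shRNA, 4.70 to 6.36 CPM in control libraries), whereas VWF (2.21 to 2.84 CPM in PPM1G shRNA, 0.321 to 0.670 CPM in control libraries) and KDR (0.371 to 0.486 CPM in PPM1G shRNA, 0.0583 to 0.203 CPM in control libraries) were higher. The part of other cell types in the differences below was not tested. In bulk RNA, a change in the share of cells that make a transcript and a change in its amount per cell cannot be told apart.

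Of the 10 genes, 9 passed the expression filter, and INHBB did not. Past an adjusted p of 0.05, 6 of the 9 rose (GDF15, INHBE, FSTL3, TGFB1, TGFB3 and BMP4) and 2 fell (INHBA and FST). Across all 13060 genes tested 82.9% passed, 41.5% upward and 41.3% downward, and nothing is read from the members' count. At least 2-fold changes were reached by GDF15, INHBE and FSTL3 upward and by INHBA and FST downward, beside 24.2% of all genes (11.8% upward and 12.4% downward). For 8 of the 9 the groups had CPM ranges that did not overlap, which was also so for 83.7% of all genes tested. TGFB2 did not pass the threshold.

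GDF15, FSTL3, INHBA and FST are 4 of the 5 genes with differences of at least 2-fold. The 250 bases before their annotated starts, from the RefSeq promoter table (GRCh38.p14), are shown because these genes moved in opposite directions. GDF15 and FSTL3 were higher, and INHBA and FST were lower, in PPM1G shRNA libraries. Sequences run 5′ to 3′ on the gene's strand, and capitals mark a TATA-box match (TATAAA, read on both strands) or an AP-1 match (TGANTCA).
GDF15, chr19:18385908-18386157, plus strand: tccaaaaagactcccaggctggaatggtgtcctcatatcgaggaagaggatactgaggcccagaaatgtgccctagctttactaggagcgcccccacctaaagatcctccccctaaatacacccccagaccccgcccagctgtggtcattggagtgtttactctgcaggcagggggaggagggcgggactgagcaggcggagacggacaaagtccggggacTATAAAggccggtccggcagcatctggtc
FSTL3, chr19:676142-676391, plus strand: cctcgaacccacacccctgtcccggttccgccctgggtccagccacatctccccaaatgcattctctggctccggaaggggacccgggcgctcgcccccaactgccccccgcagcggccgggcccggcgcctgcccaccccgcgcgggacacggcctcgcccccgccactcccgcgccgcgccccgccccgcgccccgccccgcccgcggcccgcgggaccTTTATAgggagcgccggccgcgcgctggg
INHBA, chr7:41703091-41703340, minus strand: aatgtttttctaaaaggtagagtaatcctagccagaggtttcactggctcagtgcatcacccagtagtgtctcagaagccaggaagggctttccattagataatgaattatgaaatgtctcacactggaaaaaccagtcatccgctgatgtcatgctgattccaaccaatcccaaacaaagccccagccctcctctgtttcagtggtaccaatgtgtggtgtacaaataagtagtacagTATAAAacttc
FST, chr5:53480379-53480628, plus strand: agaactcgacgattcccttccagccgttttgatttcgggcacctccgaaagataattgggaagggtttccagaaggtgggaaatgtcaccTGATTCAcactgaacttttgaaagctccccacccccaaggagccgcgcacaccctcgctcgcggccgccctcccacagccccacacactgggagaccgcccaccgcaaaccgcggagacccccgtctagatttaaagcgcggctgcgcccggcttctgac

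Counting back from the base before the start as -1, the TATA match began at -29 in GDF15, at -29 in FSTL3 (on the opposite strand) and at -11 in INHBA. Such a match was present in 5 of the 12 windows of the 10 genes and in 10.7% of all 35116 windows. The AP-1 match of FST began at -160, and 6.57% of windows held one. GC content was 58.4% for GDF15, 80.0% for FSTL3, 42.8% for INHBA and 60% for FST, beside a median of 58.0% over all windows. The INHBA window lies inside the annotated gene, whose outer end is further upstream. The table held 12 windows for 9 of the 10 genes, and none for INHBE. Other motifs were searched on both strands: the C/EBP-ATF element TGATGNAAN (3.13% of windows), the cyclic AMP response element TGACGTCA (1.65%), the SMAD palindrome GTCTAGAC (0.182%) and the E-box CACGTG (6.34%). The first 3 of these had no match in the 12 windows, and the E-box matched in windows of BMP4, TGFB2 and TGFB3. The GC box GGGCGG matched in 7 of the 12 windows and in 42.6% of all. A match is a string of letters in this window and not evidence of binding.

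The stress hormone gene GDF15 and the activin gene INHBE, which encodes the inhibin beta E chain best known from liver, had the largest differences among the 10. GDF15 (chromosome 19, positions 18386158 to 18389176) had 609, 631 and 816 counts in PPM1G shRNA libraries 1 to 3, against 42, 58 and 37 counts in control libraries 1 to 3. On the CPM scale these were 18.8, 17.0 and 22.0 in PPM1G shRNA and 1.23, 1.69 and 1.07 in control libraries. Every PPM1G shRNA library was above every control library, and GDF15 was 14.5-fold higher (log2 fold change 3.85, SE 0.14). Its TATA-bearing promoter is printed above, and the gene overlaps the microRNA gene MIR3189. INHBE (chromosome 12, positions 57455307 to 57458025) had 1270, 1633 and 1510 counts in PPM1G shRNA libraries, against 104, 89 and 95 counts in control libraries. Its CPM values were 39.3, 44.1 and 40.7 in PPM1G shRNA and 3.03, 2.59 and 2.76 in control libraries. The groups were again apart in every library, with a 14.8-fold higher level (log2 fold change 3.89, SE 0.09). INHBE overlaps a long non-coding RNA gene (LOC124902947), and without a stated strand setting their reads cannot be told apart.

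The activin A chain gene moved the opposite way. INHBA, which encodes the inhibin beta A chain (chromosome 7, positions 41685114 to 41705406), had 536, 579 and 585 counts in PPM1G shRNA libraries and 1432, 1581 and 1595 counts in control libraries. The corresponding values were 16.6, 15.6 and 15.8 CPM in PPM1G shRNA, against 41.8, 46.1 and 46.3 CPM in control libraries. All PPM1G shRNA libraries lay below all control libraries, and INHBA fell to 0.357 of its control level (log2 fold change -1.48, SE 0.06). INHBA overlaps the antisense gene INHBA-AS1. INHBB, the inhibin beta B chain gene, was hardly detected, with 0, 5 and 3 counts in PPM1G shRNA and 0, 4 and 1 counts in control libraries. No difference could be read at that depth. Within each library INHBE and INHBA could be set against each other per length, using the deposited FPKM values (fragment counts scaled by gene length and library total). The ratio of INHBE to INHBA FPKM was 7.81, 9.30 and 8.51 in PPM1G shRNA libraries, against 0.239, 0.186 and 0.196 in control libraries, so that INHBE was above INHBA in every PPM1G shRNA library and below it in every control library.

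TGFB1 and TGFB3 differed little, and the difference of TGFB2 was uncertain at its low counts. TGFB1, the main TGF-beta isoform of most tissues (chromosome 19, positions 41330323 to 41353922), had 150, 141 and 147 CPM in PPM1G shRNA libraries and 119, 114 and 119 CPM in control libraries. The groups did not overlap, and the log2 fold change was 0.31 (SE 0.04). TGFB3 (chromosome 14, positions 75958097 to 75983011) had 9.92, 9.24 and 9.45 CPM in PPM1G shRNA and 6.33, 8.80 and 8.50 CPM in control libraries. Control library 1 lay well below the other control libraries. The log2 fold change of TGFB3 was 0.27 (SE 0.11), and its call was lost without control library 1 (log2 fold change 0.14) and without PPM1G shRNA library 1 (0.25). TGFB2 (chromosome 1, positions 218345336 to 218444619) had 34, 50 and 21 counts in PPM1G shRNA and 21, 29 and 20 counts in control libraries. These ranges overlapped, and the log2 fold change of 0.54 had an SE of 0.34. Without PPM1G shRNA library 3 it was 0.83 and past the threshold. TGFB2 overlaps the non-coding genes TGFB2-AS1 and TGFB2-OT1.

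BMP4, a bone morphogenetic protein that patterns many embryonic tissues including the lung (chromosome 14, positions 53949736 to 53956891), had 7.82, 7.08 and 7.70 CPM in PPM1G shRNA libraries, against 4.76, 5.48 and 5.40 CPM in control libraries. The groups were apart, with a log2 fold change of 0.53 (SE 0.12). BMP4 overlaps a predicted protein-coding gene (LOC124903317), so part of its counts is uncertain.

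**Figure D1:**
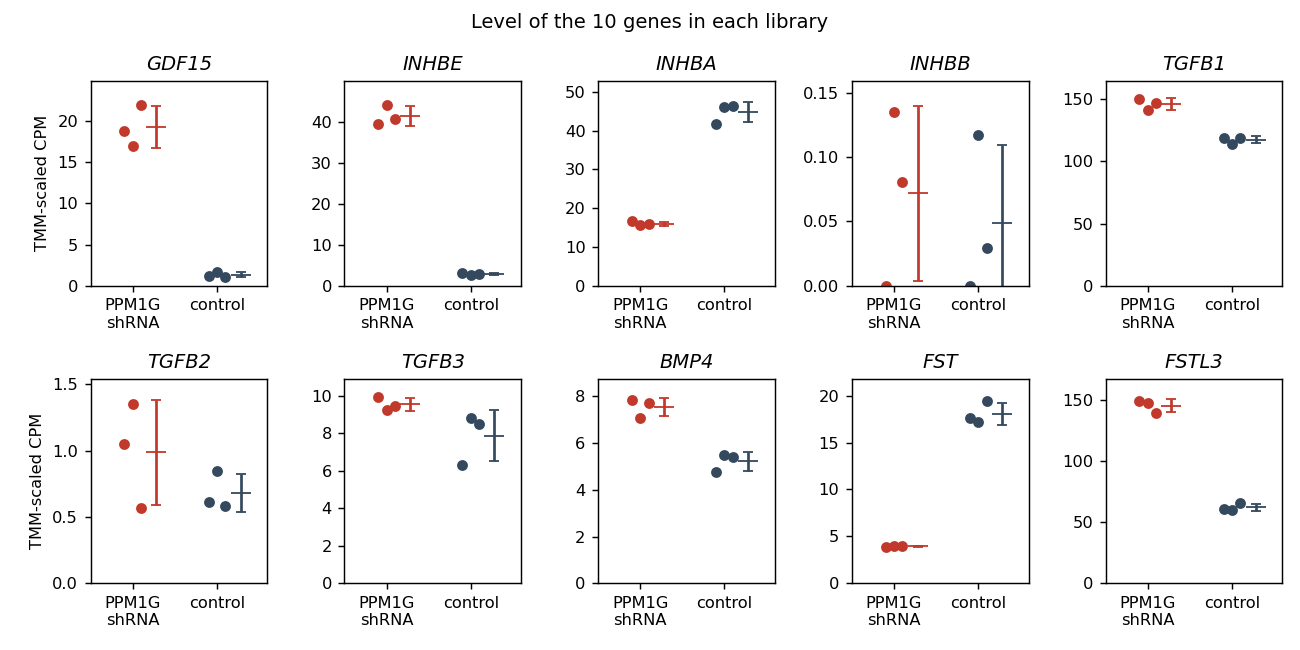
Each panel plots the TMM-scaled CPM of 1 gene on its own axis from 0, with a point for each of 3 PPM1G shRNA libraries (left) and 3 control libraries (right), and the mean with an SD bar beside them (cut off at 0 for INHBB). GDF15 and INHBE stand at 17.0 to 44.1 CPM in PPM1G shRNA libraries and at no more than 3.03 CPM in control libraries, INHBA and FST are lower, and the points of INHBB and TGFB2 overlap.

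The 2 follistatin genes changed in opposite directions. FST, which encodes follistatin (chromosome 5, positions 53480629 to 53487134), had 126, 149 and 148 counts in PPM1G shRNA libraries and 603, 589 and 668 counts in control libraries. Its levels were 3.90, 4.03 and 3.98 CPM in PPM1G shRNA and 17.6, 17.2 and 19.4 CPM in control libraries. FST fell to 0.220 of its control level (log2 fold change -2.18, SE 0.10), with no overlap between groups. FSTL3, which encodes follistatin-like 3 (chromosome 19, positions 676392 to 683385), had 149, 147 and 139 CPM in PPM1G shRNA libraries, against 60.8, 60.2 and 65.4 CPM in control libraries. It was 2.33-fold higher (log2 fold change 1.22, SE 0.04), again with the groups apart. Neither follistatin gene overlaps another gene in the RefSeq table.

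Follistatins were then set against INHBA per length. The ratio of FST to INHBA FPKM was 0.510, 0.558 and 0.549 in PPM1G shRNA libraries and 0.914, 0.808 and 0.909 in control libraries. Every PPM1G shRNA library lay below every control library in this ratio. The ratio of FSTL3 to INHBA FPKM was 29.1, 30.4 and 28.6 in PPM1G shRNA libraries, against 4.72, 4.23 and 4.58 in control libraries. The summed FPKM of both follistatin genes was 61.0 ± 2.1 in PPM1G shRNA and 28.6 ± 1.4 in control libraries (SD, n = 3 each), and FSTL3 made up most of it in both groups, since it exceeded FST 52.1- to 57.0-fold in PPM1G shRNA and 5.04- to 5.24-fold in control libraries.

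**Figure D2:**
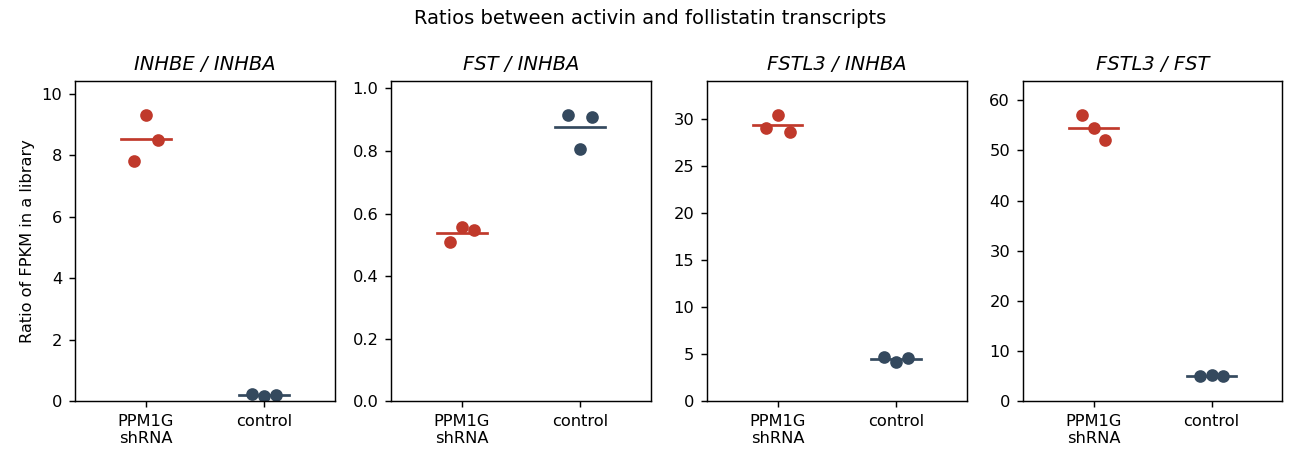
Ratios of FPKM values within a library are plotted on axes from 0, with a point per library, a line at the mean of 3, PPM1G shRNA on the left and control on the right. INHBE over INHBA, FSTL3 over INHBA and FSTL3 over FST are higher in all PPM1G shRNA libraries, and FST over INHBA is lower (0.510 to 0.558 against 0.808 to 0.914).

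The make-up of the ligand transcripts was compared per length. The FPKM values of the 8 ligand genes summed to 109 ± 2.3 in PPM1G shRNA and 65.2 ± 0.81 in control libraries (SD, n = 3 each). TGFB1 took 65.4% to 67.2% of that sum in PPM1G shRNA libraries and 81.5% to 84.0% in control libraries. INHBE took 15.0% to 17.5% in PPM1G shRNA and 1.58% to 1.84% in control libraries, and GDF15 took 9.69% to 12.0% in PPM1G shRNA and 0.912% to 1.47% in control libraries. INHBA went the other way, with 1.82% to 1.92% in PPM1G shRNA and 7.67% to 8.51% in control libraries. The shares of BMP4 lay between 2.78% and 2.97% in PPM1G shRNA and between 2.85% and 3.30% in control libraries, and overlapped.

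**Figure D3:**
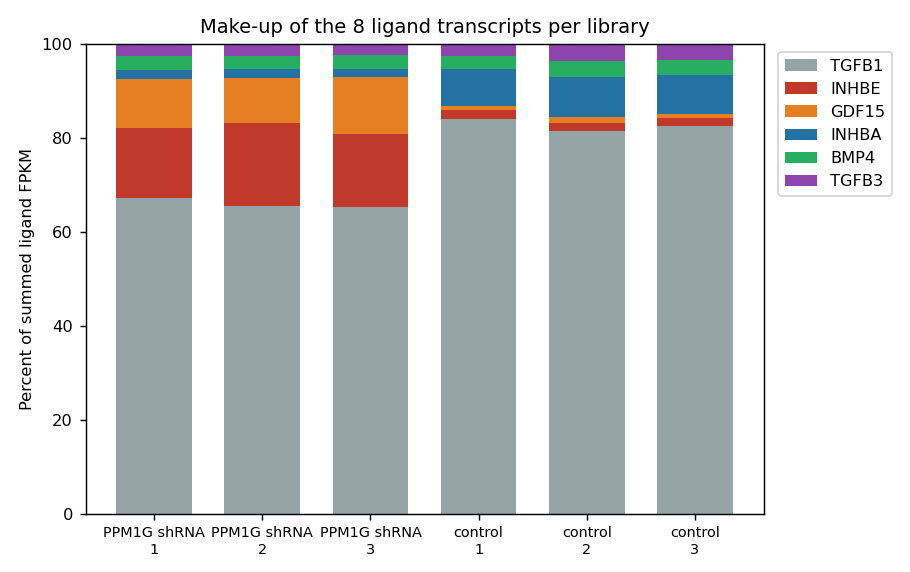
Bars stand for libraries, PPM1G shRNA 1 to 3 on the left and control 1 to 3 on the right, and stack the percent of the summed FPKM of the 8 ligand genes (INHBB and TGFB2 are too small to draw). TGFB1 is the largest part in every library, INHBE and GDF15 widen in PPM1G shRNA libraries and INHBA narrows.

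By FPKM, the order of the 10 genes in PPM1G shRNA libraries was TGFB1 (71.8 ± 2.1), FSTL3 (59.9 ± 2.1), INHBE (17.4 ± 1.1), GDF15 (11.6 ± 1.5), BMP4 (3.14 ± 0.16), TGFB3 (2.53 ± 0.087), INHBA (2.04 ± 0.06), FST (1.10 ± 0.021), TGFB2 (0.172 ± 0.069) and INHBB (0.0233 ± 0.022; SD, n = 3). Each gene was apart from its neighbour in every library of that group. In control libraries the order was TGFB1 (53.9 ± 1.1), FSTL3 (24.0 ± 1.1), INHBA (5.32 ± 0.31), FST (4.66 ± 0.30), BMP4 (2.03 ± 0.16), TGFB3 (1.95 ± 0.34), INHBE (1.10 ± 0.086), GDF15 (0.747 ± 0.18), TGFB2 (0.110 ± 0.024) and INHBB (0.0146 ± 0.018; SD, n = 3). There the ranges of INHBA and FST overlapped, as did those of BMP4 and TGFB3. FPKM depends on the length assigned to a gene, which the deposited values imply was 8111 bases for INHBA and 1719 bases for GDF15, against 6064 and 1200 bases for their longest GENCODE transcripts. With the longest transcript as length, FSTL3 stood above TGFB1 in PPM1G shRNA libraries and TGFB3 above BMP4 in control libraries, and the other 8 ranks of each group were as given.

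**Figure D4:**
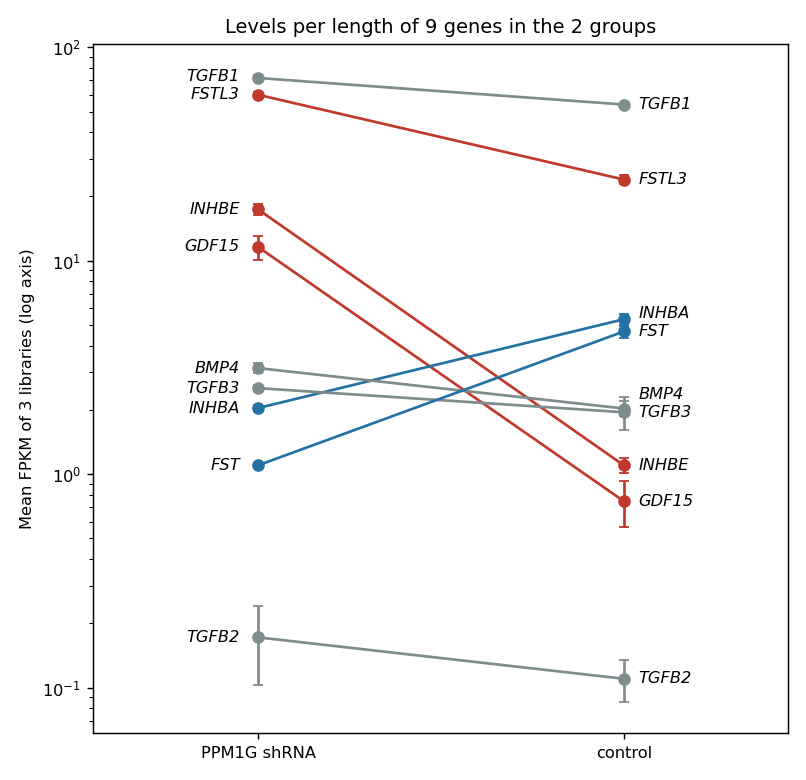
Mean FPKM of 3 libraries with SD bars is drawn on a log axis for 9 genes (INHBB, near 0, is left out), PPM1G shRNA on the left and control on the right, with lines joining a gene. Red lines mark means over 2-fold higher in PPM1G shRNA libraries, blue lines means over 2-fold lower and grey lines the rest. INHBE and GDF15 cross INHBA and FST between the groups.

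To see which transcripts had the profile most like 3 of the members, distances between centred log2 CPM profiles were taken over the 6 libraries and 10143 genes with a mean of at least 3 log2 CPM. Nearest to GDF15 were SLC16A9 (distance 0.512), a carnitine transporter gene, INHBE (0.677) and TXNIP (0.717), an inhibitor of thioredoxin. Nearest to INHBE were the amino acid transporter gene SLC43A2 (0.404), TXNIP (0.427) and DDIT3 (0.431), which encodes the stress factor CHOP. Nearest to FST were the beta tubulin gene TUBB4B (0.106), the replicative helicase gene MCM4 (0.108) and LRRC45 (0.125), a centrosomal protein gene. SLC16A9 stood at 14.9 ± 0.93 CPM in PPM1G shRNA and 0.893 ± 0.12 CPM in control libraries, and SLC43A2 at 52.1 ± 0.27 CPM in PPM1G shRNA and 3.53 ± 0.55 CPM in control libraries (SD, n = 3 each). TUBB4B stood at 228 ± 5.9 CPM in PPM1G shRNA and 1009 ± 28 CPM in control libraries, and MCM4 at 106 ± 3.0 CPM in PPM1G shRNA and 480 ± 12 CPM in control libraries (SD, n = 3 each). With 2 groups, such distances mainly reflect the size of the difference between them.

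The other genes of the pathway were followed in 8 lists of 164 genes, of which 120 passed the expression filter. By edgeR's quasi-likelihood test at an adjusted p of 0.05, 58 of these rose, 48 fell and 14 did not pass, with 29 rises and 16 falls of at least 2-fold. Over all genes tested 82.9% passed (41.5% upward and 41.3% downward) and 24.2% did so with at least 2-fold (11.8% upward and 12.4% downward). These shares are the background for the count of each list below, and no list's count was tested against them. The median log2 fold change was 0.24, beside 0.015 over all genes tested. Up to 4 genes of each list that passed are named below, taken by the size of their log2 fold change, with adjusted p between 8.3e-04 (GDF5) and 4.0e-33 (ATF3). Values after ± are SD of CPM over 3 libraries.

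Of 17 receptor genes tested, 8 rose and 8 fell, near the shares over all genes (41.5% upward, 41.3% downward), with a median log2 fold change of -0.20. BAMBI, a pseudoreceptor that lacks a kinase domain and dampens signalling, rose by 2.03 on the log2 scale (SE 0.03), with 330.0 ± 4.0 CPM in PPM1G shRNA and 80.7 ± 2.1 CPM in control libraries. The co-receptor genes ENG (log2 fold change -1.27, SE 0.07), NEO1 (-1.05, SE 0.05) and TGFBR3 (-1.04, SE 0.05) fell. TGFBR3 encodes betaglycan, which presents TGF-beta2 and inhibin, and it stood at 37.9 ± 2.5 CPM in PPM1G shRNA and 78.1 ± 2.9 CPM in control libraries. The activin receptors are added here outside that rule, with their values known. The type I receptor gene ACVR1B rose by 0.73 (SE 0.05, adjusted p = 7.1e-16), and the type II receptor genes ACVR2A and ACVR2B rose by 0.93 each (SE 0.10 and 0.08, adjusted p = 6.5e-10 and 1.2e-12). ACVR1, another type I receptor gene of the group, rose by 0.30 (SE 0.05, adjusted p = 3.1e-07). ACVR1C, a further activin type I receptor gene, fell (-1.34, SE 0.34, adjusted p = 5.5e-04), with 0.452 ± 0.088 CPM in PPM1G shRNA and 1.15 ± 0.30 CPM in control libraries. The TGF-beta receptor genes TGFBR1 and TGFBR2 changed by -0.39 (SE 0.08, adjusted p = 1.6e-05) and 0.10 (SE 0.03, adjusted p = 0.0038). Neither chain of the GDF15 receptor was abundant: GFRAL had 0 counts in the PPM1G shRNA libraries and 1 count in the control libraries, and RET had 0.416 ± 0.13 CPM in PPM1G shRNA and 0.815 ± 0.16 CPM in control libraries (adjusted p = 0.017).

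Of 25 other ligand genes of the family, 8 were tested, with 3 rises and 4 falls (median -0.45). BMP8B rose by 2.34 (SE 0.31) and GDF5 by 0.85 (SE 0.22), while BMP6 (-1.90, SE 0.30) and the anti-Mullerian hormone gene AMH (-1.37, SE 0.35) fell, all 4 averaging no more than 2.72 CPM in either group. GDF11, added here outside the rule, was more abundant and also fell (-0.81, SE 0.09, adjusted p = 2.1e-09 in edgeR's test). Its level was 8.48 ± 0.96 CPM in PPM1G shRNA and 14.8 ± 0.53 CPM in control libraries. INHBC, the beta C chain gene, did not pass the filter. It had 32 counts over the PPM1G shRNA libraries and 8 over the control libraries. INHA, the alpha chain gene of the inhibins, had 37 counts over the PPM1G shRNA and 23 over the control libraries and was not tested either.

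Among 7 tested antagonist genes other than the follistatins, 0 rose and 5 fell (median -0.76). The BMP-binding genes TWSG1 (-0.76, SE 0.06) and CHRDL1 (-0.68, SE 0.07) fell, as did the follistatin-domain genes FSTL1 (-0.81, SE 0.04) and FSTL4 (-1.44, SE 0.17). FSTL1 had 104 ± 1.5 CPM in PPM1G shRNA and 184 ± 9.1 CPM in control libraries. NOG, which encodes the BMP antagonist noggin, had 12.1 ± 0.10 CPM in PPM1G shRNA and 12.8 ± 0.92 CPM in control libraries and did not pass the threshold (adjusted p = 0.43 in edgeR's test).

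Genes for latency, cleavage and activation numbered 16 tested, with 4 rises and 8 falls (median -0.17). THBS1, which encodes thrombospondin 1, an activator of latent TGF-beta, rose by 2.58 (SE 0.06), with 76.5 ± 4.2 CPM in PPM1G shRNA and 12.8 ± 0.34 CPM in control libraries. The fibrillin gene FBN2 rose by 1.72 (SE 0.26). NRROS, which anchors latent TGF-beta on cells, fell (-2.02, SE 0.17), and so did the integrin gene ITGB8 (-1.92, SE 0.26). Levels of FBN2, NRROS and ITGB8 were low. FBN2 had 2.40 ± 0.25 CPM in PPM1G shRNA and 0.728 ± 0.18 CPM in control libraries. NRROS had 1.49 ± 0.17 CPM in PPM1G shRNA and 6.09 ± 0.70 CPM in control libraries, and ITGB8 had 0.711 ± 0.15 and 2.69 ± 0.58 CPM.

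Of 26 SMAD genes and regulators tested, 18 rose and 7 fell (median 0.46), beside 41.5% and 41.3% of all genes. The inhibitory SMAD7 rose by 2.17 (SE 0.08), with 44.4 ± 3.0 CPM in PPM1G shRNA and 9.86 ± 1.1 CPM in control libraries. The negative regulators SKIL (1.63, SE 0.06) and PMEPA1 (1.39, SE 0.10) rose with it, and all 3 are known to be induced by TGF-beta signalling as feedback. CTDSPL, a small phosphatase gene, fell (-1.89, SE 0.10).

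Of 26 target genes of TGF-beta and activin tested, 10 rose and 12 fell (median -0.02), near the 41.5% and 41.3% of all genes. KLF10 (1.85, SE 0.05), the CDK inhibitor gene CDKN2B (1.59, SE 0.06), JUNB (1.47, SE 0.04) and COL1A1 (1.16, SE 0.03) rose. COL1A1 stood at 344 ± 5.1 CPM in PPM1G shRNA and 154 ± 9.0 CPM in control libraries and is also one of the mesenchymal markers given above. BMP target genes had 7 rises and 2 falls among 10 tested (median 0.55), beside 41.5% and 41.3% of all genes. The rises numbered 5 to 7 when 1 library was left out. ATOH8 (2.30, SE 0.11), HEY1 (1.93, SE 0.05), RUNX2 (1.47, SE 0.05) and ID2 (1.20, SE 0.08) rose. The genes that fell, added here outside the rule, were ID1 (-0.84, SE 0.09, adjusted p = 2.3e-10 in edgeR's test) and MSX1 (-0.72, SE 0.11, adjusted p = 2.4e-07).

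Transcription factors known to act on GDF15 were the last list, with 8 rises and 2 falls among 10 tested (median 1.88). This list was written when results on stress genes of these libraries were known, so its direction is not independent evidence. DDIT3 rose by 3.68 (SE 0.08) and ATF3 by 3.34 (SE 0.05), and EGR1 fell (-2.13, SE 0.10). ATF3 had 152 ± 2.8 CPM in PPM1G shRNA and 15.0 ± 0.75 CPM in control libraries. Of the 39 genes that the naming rule took from the lists or as nearest profiles, 22 overlap another gene in the RefSeq table. For 8 of them, such as DDIT3, THBS1 and JUNB, that is a protein-coding gene, so their counts are uncertain to the extent that reads were shared.

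**Figure D5:**
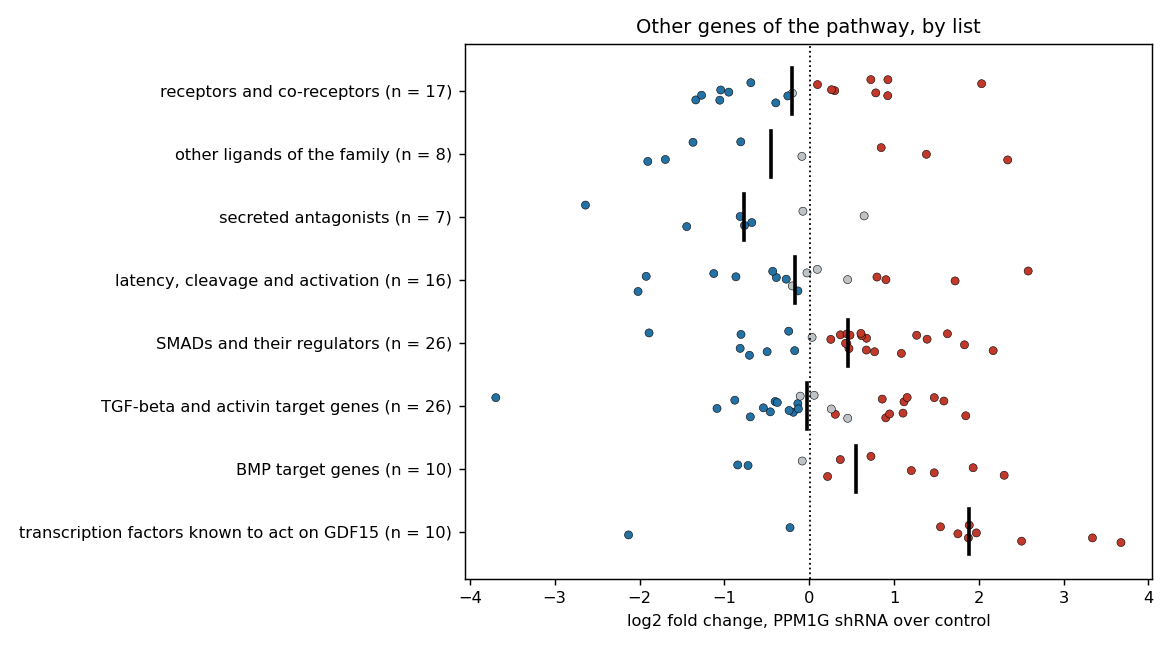
Each point is a tested gene of 1 list at its log2 fold change of PPM1G shRNA over control, red where it rose and blue where it fell at an adjusted p under 0.05 and grey otherwise, with a black bar at the list's median and a dotted line at the median of all genes (0.015). The list of factors acting on GDF15 has its median at 1.88, and the 7 tested antagonists other than FST and FSTL3 have theirs at -0.76.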

How the data were processed

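RNA was sequenced from 3 PPM1G shRNA and 3 control libraries, prepared, per the labels' protocols, with the SMARTER mRNA-Seq kit. The genome build was GRCh38 per the submitters' processing notes. The sources used here do not give the aligner, counter, annotation or strand setting. The count table holds raw whole-number counts as deposited by the authors, judged from the values, and the FPKM values deposited by the authors equal those counts over a gene length and the library total (relative spread at most 5.69e-07). Of 17534 genes, 446 had 0 counts in all libraries.

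Counts were tested in edgeR 4.0.16 (R 4.3.3) with its expression filter at a minimum count of 10, TMM factors and a robust quasi-likelihood fit on group alone. P-values were Benjamini-Hochberg adjusted over all genes tested, and the threshold was 0.05. SE is the absolute log2 fold change over the square root of F. Alternatives used DESeq2 1.42.0, limma 3.58.1, other scalings and filters, a replicate block and each library left out. Each pair of libraries within a group differed by more than sampling noise (chi-square per degree of freedom 2.69 to 6.44). Levels are relative within a library.

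The members and lists were chosen with earlier results of these data known. Named genes were the members, PPM1G, from each list up to 4 genes past the threshold, ranked by the size of the log2 fold change and with mean log2 CPM not under 0, and 3 nearest profiles each for GDF15, INHBE and FST. Promoter sequences are from RefSeq. Protein features were not analysed here. Not every gene that the rule takes is reported here.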

Additional observations from a re-analysis of the deposited data

How the results depend on the processing

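Every fold change of the 9 tested members kept its sign in all 16 alternatives (13 for TGFB2). The ranges were 2.85 to 4.06 for GDF15, 3.13 to 3.99 for INHBE, -1.53 to -1.06 for INHBA, -2.22 to -1.43 for FST and 1.20 to 1.32 for FSTL3 on the log2 scale, where the smallest sizes for all but FSTL3 came from log2(FPKM + 1), which understates the change of low genes. The number of members that rose was 5 to 7 when 1 library was left out, with TGFB3 and TGFB2 changing sides as given above, and 2 fell each time. The 32 genes named from lists kept direction and call in all 504 values. Of 256 list counts, 8 moved by over 1.5 times, for causes not tested. Rises among other ligands were 1 to 6 against 3, falls among them 2 against 4, and falls among TGF-beta and activin targets 7 against 12. With 1 library left out, other ligands had 2 to 3 rises and 4 falls, and the targets had 12 falls. These moves therefore came with the other alternatives. Plain library totals shifted the median of all genes to 0.115, against 0.015 with TMM, and gave -1.38 for INHBA, -2.08 for FST and 1.32 for FSTL3. On log2(FPKM + 1), with or without a filter, 847 genes rose and 801 fell by at least 2-fold, against 1541 and 1617 in the count test. With the longest GENCODE transcript as length, an alternative chosen after seeing the data, the FST to INHBA ratio was 0.594 in PPM1G shRNA and 0.966 in control libraries, and the FSTL3 to INHBA ratio was 21.6 in PPM1G shRNA and 3.32 in control libraries. Leaving out 1 library gave 10531 to 10836 changed genes. With a replicate block 10805 genes changed, against 10821 without it. Same-numbered deviations correlated at -0.017 to 0.013. Such values cannot show whether same-numbered libraries shared a culture or preparation. TGFB2 and INHBB are limited by depth, with at most 50 and 5 counts in a library.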

Other observations

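The KEGG TGF-beta signaling pathway, as annotated in the deposited tables, holds 81 genes beside the members, of which 66 were tested, 33 rose and 26 fell, with a median log2 fold change of 0.11 beside 0.015 over all genes. It lists neither GDF15 nor FSTL3. Rises and falls of at least 2-fold numbered 9 each. Over all genes tested 82.9% passed the threshold and 24.2% did so with at least 2-fold, and the pathway's counts are close to these shares.

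Of the 3 SMAD genes that bone morphogenetic protein receptors act on, SMAD1 and SMAD9 rose and SMAD5 fell (log2 fold change -0.17, SE 0.05, adjusted p = 0.0017 in edgeR's test). SMAD1 stood at 63.3 ± 2.6 CPM in PPM1G shRNA and 37.1 ± 1.3 CPM in control libraries (SD, n = 3 each), and SMAD9 at 15.2 ± 0.54 CPM in PPM1G shRNA and 7.14 ± 0.75 CPM in control libraries. Rises were not limited to these genes. SMAD2 (log2 fold change 0.37, SE 0.04), SMAD3 (0.68, SE 0.03) and SMAD4 (0.62, SE 0.04) also rose. Their adjusted p-values in edgeR's test were 1.2e-09, 7.1e-21 and 1.3e-15. All these SMAD genes and the genes named next were picked after their values were seen. The surface protease gene MMP14 had 1022 ± 18 CPM in PPM1G shRNA and 2229 ± 22 CPM in control libraries. Its log2 fold change was -1.13 (SE 0.03, adjusted p = 3.9e-28 in edgeR's test). The latent TGF-beta binding protein genes LTBP1 and LTBP3 changed by -0.86 (SE 0.04) and 0.80 (SE 0.05). LTBP2 (-0.03, SE 0.06) and LTBP4 (0.10, SE 0.05) did not pass the threshold (adjusted p = 0.68 and 0.081 in edgeR's test).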
